A study of Mus musculus with 10 samples.

Results

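The E proteins, their Id antagonists and a set of factors known from plasmacytoid dendritic cells (pDCs) were followed through the precursors of conventional dendritic cells (cDCs) of the mouse spleen. The 10 genes were chosen by name: Id2 and Id3, the E protein genes Tcf3, Tcf4 and Tcf12, and Zeb2, Spib, Runx2, Bcl11a and Cbfa2t3. All 10 were among the 52550 genes of the deposited expression table, and all 10 were among the 14787 genes with enough signal to test. Each gene was matched to 1 row of the table.

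RNA had been sequenced from pre-cDC1, the precursors committed to cDC1, and pre-cDC2, those committed to cDC2, of C57BL/6 mice. The samples were 3 wild-type (WT) and 3 knockout (KO) pre-cDC1 libraries, called DN in the sample titles, and 2 WT and 2 KO pre-cDC2 libraries, called Ly6C. The KO mice carried a CD11c-cre transgene with floxed Adam10 alleles, so that Cre is made where the CD11c promoter is active, which includes dendritic cells and some other leukocytes. ADAM10 cuts surface proteins, Notch receptors among them, off the membrane. The labels do not say whether the WT mice carried Cre, how many animals gave each library, or whether libraries came from separate animals, so p-values measure only the spread between libraries. The values are log2 RPKM, the log2 of library-scaled reads over gene length in kilobases. That length takes in all annotated exons of a gene, 27382 bases for Tcf4, 4039 for Tcf3 and 2438 for Id2. Levels of different genes set side by side therefore rest on these lengths.

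E proteins are basic helix-loop-helix factors that bind E-box sequences as pairs and drive lymphoid and pDC genes. Id proteins have the helix-loop-helix but no DNA-binding region, so they hold E proteins in pairs that cannot bind DNA. In dendritic cells, Tcf4, which encodes E2-2, is the central regulator of pDC identity, while Id2 is required for cDC1, and Zeb2 is known to repress Id2 and to be needed for pDCs and cDC2.

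Across the libraries, recovered totals were 7862016 to 13177120 reads. The precursor labels were checked against markers. The mean of 11 cDC1 markers was 6.99 to 7.47 log2 RPKM in the pre-cDC1 libraries and 2.35 to 2.82 in pre-cDC2. Ly6c2, the gene of the Ly6C antigen, was 9.22 to 9.62 in pre-cDC2 and 2.70 to 3.80 in pre-cDC1. The defining cDC2 marker Sirpa was 3.89 to 5.47 in pre-cDC2 and 0.84 to 3.69 in pre-cDC1, but of the 10 tested cDC2 markers 1 was called higher and 1 lower in WT pre-cDC2, and 6 higher and 1 lower in KO. Markers shared by all cDCs were lower in pre-cDC2, with 5 of 9 called lower in each genotype and a mean of 6.48 to 7.88 against 8.70 to 8.88 in pre-cDC1. Markers of other cells also differed between the precursors. The mean of 10 pDC markers was 3.78 to 5.12 log2 RPKM in pre-cDC2 and 0.51 to 1.61 in pre-cDC1. Of these 10, 7 were called higher in WT pre-cDC2 and 8 in KO, against 4.88% and 10.7% of all tested genes. The part of pDCs in the differences between the precursors was not tested. All 20 T cell markers were above 0 log2 RPKM in 3 of the pre-cDC2 libraries, with a mean of 6.04 to 6.52, and all 18 NK cell markers too, with a mean of 5.83 to 5.96. WT pre-cDC2 2 stood apart, with means of 2.47 and 1.36, while the pre-cDC1 libraries had means of -3.61 to -0.35 for T cell and -3.12 to 0.31 for NK cell markers. The summed level of 14 B cell markers was 1112 to 1729 RPKM in pre-cDC2 and 360 to 709 RPKM in pre-cDC1. Their means overlapped, at -1.47 to -0.13 log2 RPKM in pre-cDC2 and -3.02 to 0.04 in pre-cDC1. Of the 7 tested, 0 were called higher and 1 lower in WT pre-cDC2, and 3 higher and 0 lower in KO. Among the 14, Pax5 had 0 reads in all pre-cDC2 libraries but WT pre-cDC2 2, which had 4, while Ighm had 11486 to 25730 and Igkc 619 to 6848. Within pre-cDC1, Adam10 itself was -2.29 to 0.13 in WT and -3.90 to -1.50 in KO libraries. Within pre-cDC2 it was 1.76 and 4.53 in WT libraries, against 4.24 and 4.11 in KO. These are reads over the whole gene and not over the floxed part alone, so they do not check the deletion, and Adam10 was not lower in KO than in WT pre-cDC2.

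**Figure D1:**
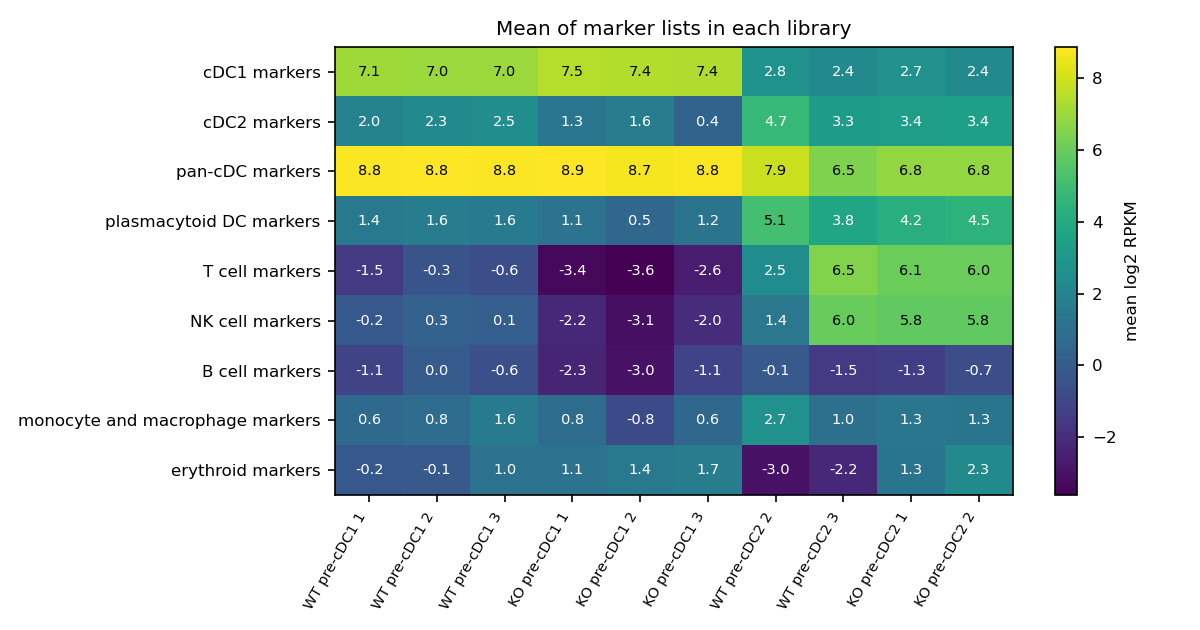
Mean log2 RPKM of each marker list (rows) in each of the 10 libraries (columns), with the value printed in each cell. T cell markers stand at 6.04 to 6.52 in 3 pre-cDC2 libraries, at 2.47 in WT pre-cDC2 2 and below 0 in pre-cDC1.

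Between the precursors, most of the 10 genes differed. Pre-cDC1 had more Id2, and pre-cDC2 had more Id3, Tcf4, Zeb2, Spib, Runx2 and Bcl11a, while Tcf3 overlapped between the precursors in both genotypes and Cbfa2t3 did so in WT. In WT, 6 of the 10 genes were higher in pre-cDC2 (Id3, Tcf4, Zeb2, Spib, Runx2 and Bcl11a) and 1, Id2, was lower at an adjusted p below 0.05, where 11.5% of all tested genes passed, 4.88% higher and 6.59% lower. The pre-cDC2 values of 7 genes lay wholly above the pre-cDC1 values and those of 1 wholly below, against 20.2% and 18.5% of all tested genes. In KO, 7 were higher (the same 6 and Tcf12) and Id2 was lower, where 20.8% of all tested genes passed, 10.7% higher and 10.1% lower. There, 7 genes lay wholly above and 2 wholly below, against 28.6% and 23.1% of all tested genes. The median difference of the 10 genes was 1.82 in WT and 1.83 in KO, against 0.06 and 0.09 for all tested genes. All adjusted p-values here are from limma's moderated test of log2 RPKM, adjusted by Benjamini and Hochberg over all tested genes, and differences are given on the log2 scale with their SE. In sorted populations, a smaller share of cells that express a gene and less RNA per cell cannot be told apart.

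Id2 was the most abundant of the 10 in pre-cDC1. It stood at 8.69, 8.67 and 8.47 log2 RPKM in the WT pre-cDC1 libraries 1 to 3 and at 8.63, 8.28 and 8.49 in the KO ones, above 99.3% of tested genes in each library. In pre-cDC2 it was 3.02 in WT pre-cDC2 2, 6.37 in WT pre-cDC2 3, with 6.29 and 5.88 for KO pre-cDC2 1 and 2. All pre-cDC2 libraries were thus below all pre-cDC1 libraries, and WT pre-cDC2 2 was far below the other pre-cDC2 libraries. Id2 was lower in pre-cDC2, with a difference of -3.91 ± 0.73 in WT (limma adjusted p = 0.00913) and -2.38 ± 0.73 in KO (limma adjusted p = 0.0462). Without WT pre-cDC2 2, the WT difference was -2.24, from the only WT pre-cDC2 library left. The KO call was the less stable, since it passed in 9 of 21 alternative settings, with limma adjusted p-values from 3.36e-05 to 0.213.

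Id3 ran the opposite way. In pre-cDC1, Id3 was 1.93, 2.69 and 1.21 in WT and 1.13, 2.13 and 1.42 in KO, while pre-cDC2 had 4.94 and 4.17 in WT and 3.23 and 3.60 in KO. Every pre-cDC2 library exceeded every pre-cDC1 library, and Id3 rose by 2.62 ± 0.46 in WT (limma adjusted p = 0.00703) and by 1.86 ± 0.46 in KO (limma adjusted p = 0.0199). Both KO pre-cDC2 libraries were below both WT ones, a difference of -1.14 ± 0.50 that did not pass (limma adjusted p = 0.746).

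The E protein genes did not share a pattern. In pre-cDC1, Tcf3, which encodes the E2A proteins, was 4.31, 4.34 and 4.22 in WT and 4.63, 4.39 and 3.71 in KO, while pre-cDC2 had 4.09 and 5.11 in WT and 3.84 and 4.01 in KO. The cell types overlapped in both genotypes and no comparison passed. Its difference between the precursors was 0.31 ± 0.32 in WT (limma adjusted p = 0.611) and -0.32 ± 0.32 in KO (limma adjusted p = 0.547).

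In pre-cDC1, Tcf4 was 1.82, 2.02 and 2.22 in WT and 1.48, 1.31 and 1.57 in KO, while pre-cDC2 had 5.32 and 3.72 in WT and 4.16 and 4.25 in KO. It ranked between percentiles 38.1 and 51.6 of tested genes in pre-cDC1 and between 73.5 and 91.5 in pre-cDC2, with no overlap. It rose by 2.50 ± 0.40 in WT (limma adjusted p = 0.00427) and by 2.76 ± 0.40 in KO (limma adjusted p = 0.00136). Without WT pre-cDC2 2, the WT rise was 1.70, from the only WT pre-cDC2 library left.

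Tcf12, which encodes HEB, was the lowest of the E protein genes in each pre-cDC2 library. In pre-cDC1, Tcf12 was 2.22, 1.44 and 1.70 in WT and 1.83, 1.81 and 1.19 in KO, while pre-cDC2 had 2.67 and 3.0 in WT and 2.46 and 3.05 in KO. Both pre-cDC2 groups lay above the pre-cDC1 groups. The difference was 1.05 ± 0.35 in WT, which did not pass (limma adjusted p = 0.0890), and 1.14 ± 0.35 in KO, which did (limma adjusted p = 0.0455), though in 8 of 21 alternative settings only. The difference between the genotypes was 0.09 ± 0.49 (interaction, limma adjusted p = 0.997).

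Summed as RPKM, the Id genes Id2 and Id3 exceeded the E protein genes 11.7 to 19.8 times in pre-cDC1. The ratio was 0.613 in WT pre-cDC2 2 and 1.64 to 2.33 in the other pre-cDC2 libraries. WT pre-cDC2 2 was thus the only library with a higher E protein sum than Id sum. These sums rest on the gene lengths used and do not count transcripts. Tcf3 gave 70.3% to 79.6% of the E protein RPKM in pre-cDC1. Tcf4 gave 8.95% to 17.5% there, but 63.0% in WT pre-cDC2 2, 23.6% in WT pre-cDC2 3, with 47.5% and 43.9% for KO pre-cDC2 1 and 2. Of the summed Id2 and Id3 RPKM, Id3 gave 0.549% to 1.56% in pre-cDC1, 79.1% in WT pre-cDC2 2 and 10.7% to 17.9% in the other pre-cDC2 libraries. Id1 is in neither this share nor the ratio. It was 3.64 log2 RPKM in WT pre-cDC2 2, above Id2 at 3.02 there, and 0.91 or less in the other libraries. Counting Id1 would raise the ratio and lower the Id3 share in WT pre-cDC2 2. Among the pre-cDC2 libraries, WT pre-cDC2 2 had the lowest T cell and NK cell marker means and the lowest Id2. T and NK cells express Id2, Tcf3 and Tcf12 too, and the part of their RNA in these values was not tested.

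**Figure D2:**
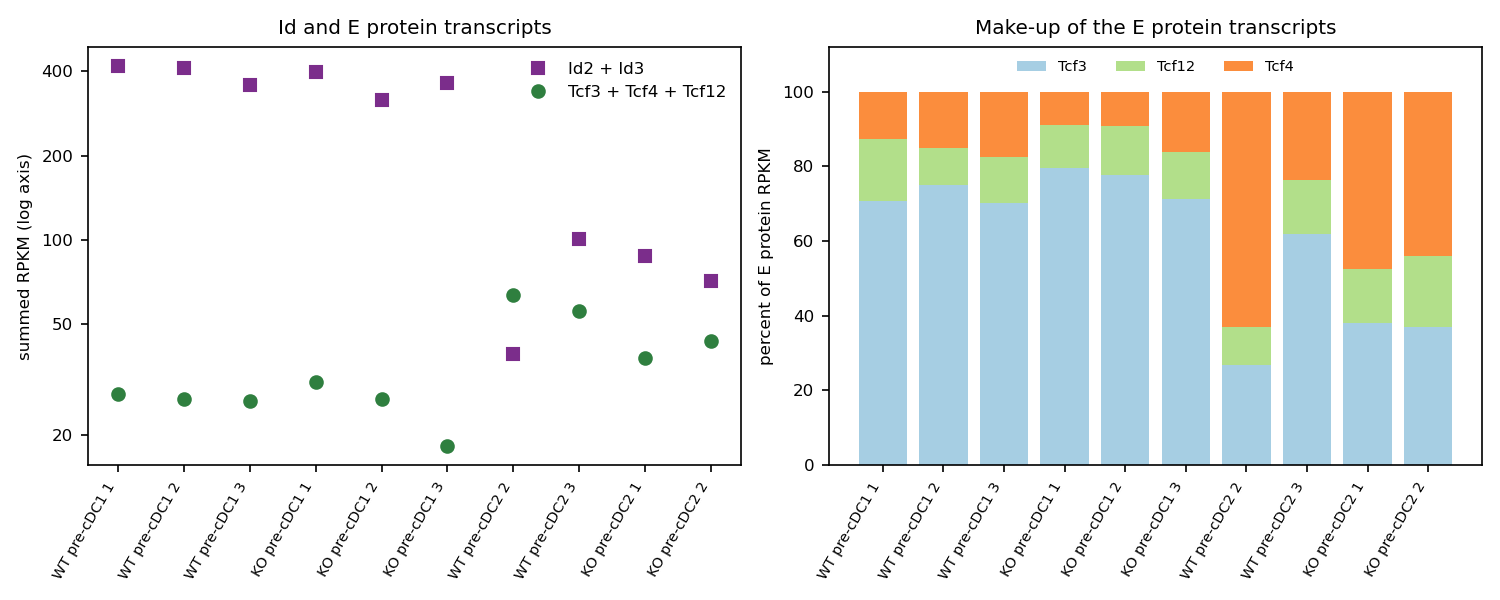
Left, summed RPKM (log axis) of the Id genes Id2 and Id3 and of the E protein genes Tcf3, Tcf4 and Tcf12 in each library. Right, the percent of the E protein RPKM from each gene. The Id sum is above the E protein sum in 9 libraries and below it in WT pre-cDC2 2, where Tcf4 gives 63.0% of the E protein RPKM.

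Zeb2, a zinc finger E-box-binding repressor, had the widest range of the 10 genes, 6.11 log2 units. In pre-cDC1, Zeb2 was 0.71, 0.78 and 1.26 in WT and -0.35, -1.65 and -0.88 in KO, while pre-cDC2 had 4.46 and 2.89 in WT and 3.65 and 3.47 in KO. All pre-cDC2 libraries were higher than all pre-cDC1 libraries, by 2.76 ± 0.54 in WT (limma adjusted p = 0.0109) and by 4.52 ± 0.54 in KO (limma adjusted p = 0.000534). Without WT pre-cDC2 2, the WT difference was 1.98, from the only WT pre-cDC2 library left.

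Spib encodes an Ets factor of pDCs and B cells. In pre-cDC1, Spib was 3.98, 4.52 and 4.45 in WT and 2.36, 2.10 and 1.90 in KO, while pre-cDC2 had 7.33 and 6.03 in WT and 6.08 and 6.35 in KO. It had the highest mean of the 10 genes in both pre-cDC2 groups, and it was higher there than in pre-cDC1 by 2.36 ± 0.34 in WT (limma adjusted p = 0.00287) and by 4.09 ± 0.34 in KO (limma adjusted p = 7.87e-05). Without WT pre-cDC2 2, the WT difference was 1.71, from the only WT pre-cDC2 library left.

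Runx2, a Runt factor known from bone and from the exit of pDCs from bone marrow, gave the smallest adjusted p of the 10 in both genotypes. In pre-cDC1, Runx2 was 2.71, 2.74 and 2.62 in WT and 1.90, 2.04 and 1.92 in KO, while pre-cDC2 had 6.14 and 5.03 in WT and 5.32 and 5.53 in KO. The groups of the precursors were far apart, and the difference was 2.90 ± 0.28 in WT (limma adjusted p = 0.000289) and 3.47 ± 0.28 in KO (limma adjusted p = 6.29e-05). This call held in 21 of 21 alternative settings in each genotype.

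Bcl11a, a zinc finger factor needed for pDCs and B cells, moved less. In pre-cDC1, Bcl11a was 2.63, 2.83 and 2.80 in WT and 2.24, 2.07 and 2.33 in KO, while pre-cDC2 had 4.70 and 3.35 in WT and 4.01 and 4.01 in KO. The precursors did not overlap, with a difference of 1.27 ± 0.34 in WT (limma adjusted p = 0.0402) and 1.80 ± 0.34 in KO (limma adjusted p = 0.00533). The WT call passed in 5 of 21 alternative settings. Without WT pre-cDC2 2, the WT difference was 0.59, from the only WT pre-cDC2 library left.

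Cbfa2t3, which encodes the corepressor ETO2 (also MTG16) that binds E proteins, was the exception among the pDC factors. In pre-cDC1, Cbfa2t3 was 5.24, 5.29 and 5.32 in WT and 5.40, 5.22 and 5.26 in KO, while pre-cDC2 had 5.37 and 3.69 in WT and 4.19 and 4.39 in KO. WT pre-cDC2 2 was level with pre-cDC1 and the other 3 pre-cDC2 libraries were lower. The difference did not pass in WT, at -0.76 ± 0.38 (limma adjusted p = 0.250), or in KO, at -1.0 ± 0.38 (limma adjusted p = 0.0960). Without WT pre-cDC2 2, the WT difference was -1.60, from the only WT pre-cDC2 library left. The KO difference passed in 3 of 21 alternative settings. Leaving out a WT pre-cDC2 library keeps every KO library, so the KO difference stayed at -1.0 and only the shared estimate of the spread changed.

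**Figure D3:**
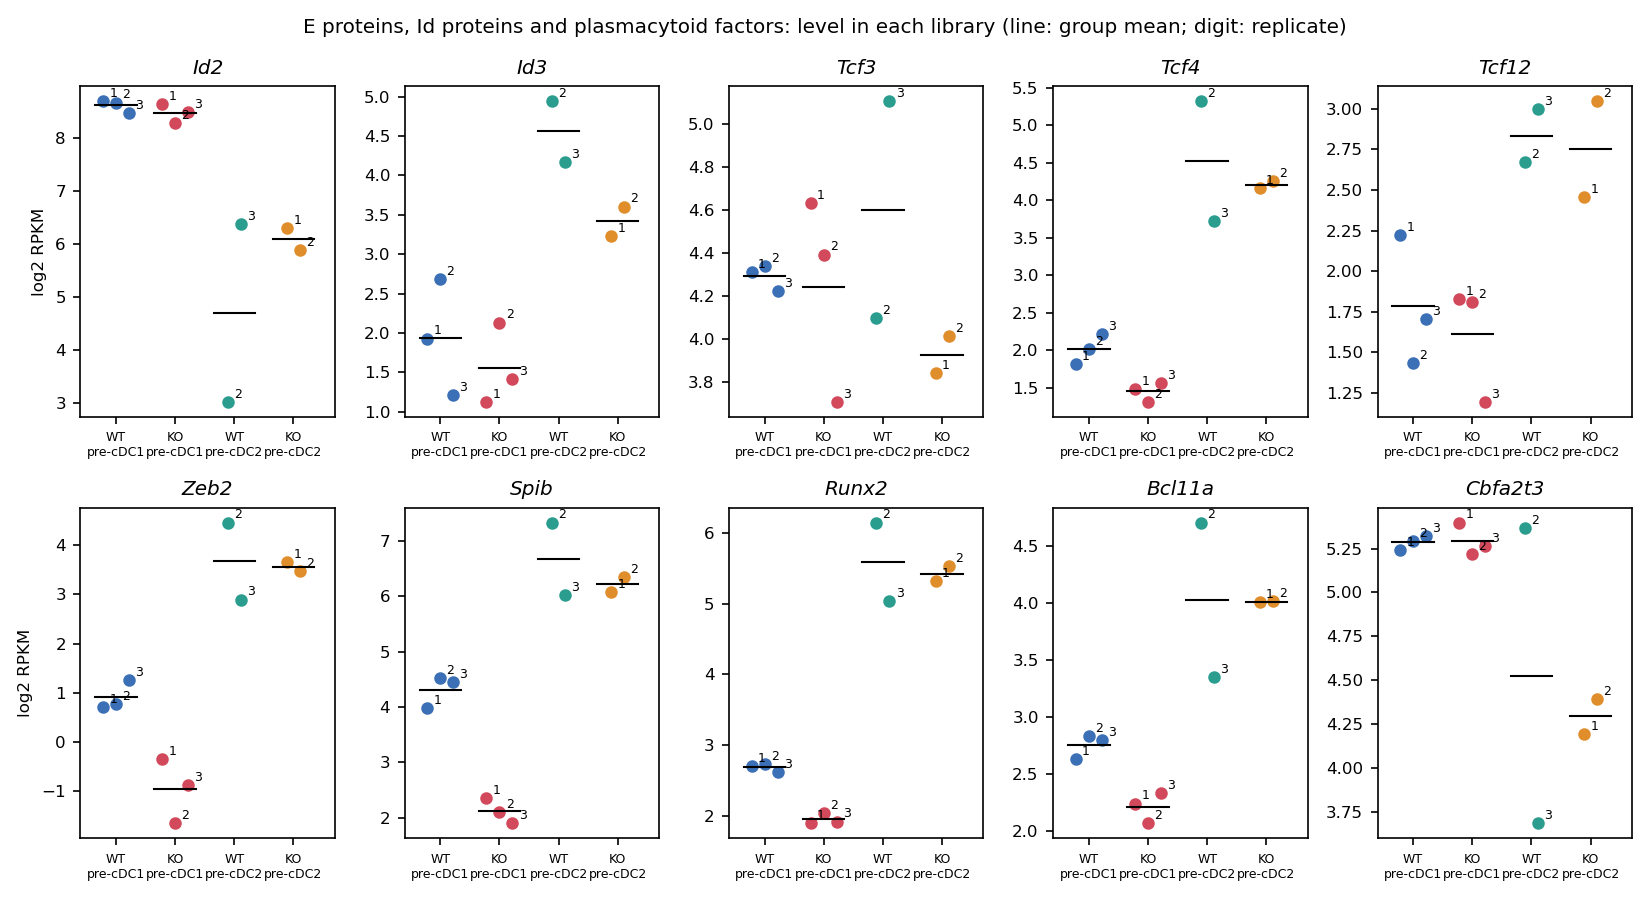
Log2 RPKM of each of the 10 genes in each library, by group, with a line at the group mean and the replicate number beside each point. The scale differs between panels. WT pre-cDC2 2 is the highest of all libraries for 6 genes and the lowest for Id2.

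The WT pre-cDC2 libraries thus set much of the spread. They differed by more than 1 log2 unit for 8 of the 10 genes, against 35.2% of all tested genes, while the KO pre-cDC2 libraries did so for 0 of the 10, against 17.8%. WT pre-cDC2 2 had the higher value for Id3, Tcf4, Zeb2, Spib, Runx2, Bcl11a and Cbfa2t3, and the lower for Id2, Tcf3 and Tcf12. It also had the highest mean of 10 pDC markers, at 5.12 against 3.78 to 4.48 in the other pre-cDC2 libraries, and of 11 cDC2 markers, at 4.75 against 3.26 to 3.43. The part of these cells in the result was not tested. Without that library, WT pre-cDC2 3 is the only WT pre-cDC2 library left. The median difference of the 10 genes between the WT precursors was then 1.46, and it was 1.82 with both libraries.

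The next question was whether the genotype moved these genes within a precursor. In pre-cDC1, 0 of the 10 genes passed the limma test of KO against WT, as did 0.0271% of all tested genes, and 0 passed by voom on recovered reads. Of the 10, 3 had an unadjusted p below 0.05 (Spib, Zeb2 and Runx2), against 9.03% of all tested genes. The KO values of 5 genes lay wholly below the WT values (Tcf4, Zeb2, Spib, Runx2 and Bcl11a), as did those of 9.27% of all tested genes. The median difference of the 10 genes was -0.46, against -0.0038 for all tested genes.

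Spib had the largest genotype difference. All 3 KO pre-cDC1 libraries were below all 3 WT ones, with a difference of -2.19 ± 0.31, or 4.58-fold on the linear scale, and the adjusted p was just over the threshold (limma adjusted p = 0.0526). It passed in 4 of 20 alternative settings, with limma adjusted p-values from 0.00333 to 0.338, and kept its sign in all 20. The settings that passed were the stricter filter, the fit of the compared groups alone, and the fits without WT pre-cDC2 2 or WT pre-cDC2 3, both of which keep every pre-cDC1 library and change only the shared estimate of the spread.

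Zeb2 differed by -1.88 ± 0.48 between KO and WT pre-cDC1 (limma adjusted p = 0.219), and by -0.91 with 1 RPKM added before the log2 (limma adjusted p = 0.457). Its values rest on 62 to 161 reads in KO and 293 to 485 in WT pre-cDC1. Runx2 differed by -0.74 ± 0.25 (limma adjusted p = 0.390), and it passed only in the fit without WT pre-cDC2 3 (limma adjusted p = 0.0475). Tcf4 differed by -0.57 ± 0.35 (limma adjusted p = 0.707) and Bcl11a by -0.54 ± 0.30 (limma adjusted p = 0.650). The other 5 genes differed by -0.38 to 0.01 with overlapping groups: Id3 by -0.38 ± 0.41, Tcf12 by -0.18 ± 0.31, Id2 by -0.14 ± 0.65, Tcf3 by -0.05 ± 0.29 and Cbfa2t3 by 0.01 ± 0.34.

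Cell type marker lists also had separate values in WT and KO pre-cDC1, although 0 of their genes passed the limma test. The mean of 10 pDC markers was 1.42 to 1.61 in WT and 0.51 to 1.21 in KO pre-cDC1, and that of 11 cDC2 markers was 1.97 to 2.52 and 0.43 to 1.64. T cell markers had a mean of -1.48 to -0.35 in WT and -3.61 to -2.64 in KO, with 5 to 10 and 1 to 3 of 20 above 0 log2 RPKM, and a summed level of 16.4 to 29.3 against 5.30 to 6.59 RPKM. NK cell markers had a mean of -0.19 to 0.31 in WT and -3.12 to -2.03 in KO, with 8 to 11 and 3 to 5 of 18 above 0. Their summed level was 68.3 to 72.0 RPKM in WT and 43.0 to 45.0 RPKM in KO. The defining NK markers Ncr1 and Klrb1c had 0 reads in KO pre-cDC1 1 and 2. Of the pDC markers, Klk1 had 0 reads in all 6 pre-cDC1 libraries, but Bst2 had 234 to 419 and Siglech 97 to 483. The mean of 11 cDC1 markers was 6.99 to 7.08 in WT and 7.40 to 7.47 in KO. The summed level of B cell markers was 607 to 709 RPKM in WT and 360 to 409 in KO, and that of 13 monocyte and macrophage markers 1787 to 1982 and 1090.5 to 1425. The means of these 13 overlapped, at 0.65 to 1.55 log2 RPKM in WT and -0.81 to 0.80 in KO. Lyz2, which is among the 13, was 10.62 to 10.80 in WT and 9.82 to 10.24 in KO. Erythroid markers went the other way, with a summed level of 15.5 to 24.2 RPKM in WT and 40.1 to 75.7 in KO. The part of these cells in the difference of Spib and Zeb2 was not tested.

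The promoters of Spib and Zeb2, the genes with the largest genotype differences, are shown with their E-boxes (CANNTG, the letters that E proteins bind). They are the 250 bases before the RefSeq start site (build GRCm38.p6, minus strand, 5′ to 3′), with E-boxes in capitals. The Spib sequence is chr7:44532072-44532321 and holds 2 E-boxes, 165 and 136 bases before the start. The Zeb2 sequence is chr2:45117443-45117692, before the most upstream of its 4 RefSeq starts, and it holds none, as do the windows before the other 3 starts.
Spib: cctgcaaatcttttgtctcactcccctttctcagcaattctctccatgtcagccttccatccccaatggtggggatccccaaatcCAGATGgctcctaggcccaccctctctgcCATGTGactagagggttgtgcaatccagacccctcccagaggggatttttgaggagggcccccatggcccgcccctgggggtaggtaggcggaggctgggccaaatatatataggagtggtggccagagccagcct
Zeb2: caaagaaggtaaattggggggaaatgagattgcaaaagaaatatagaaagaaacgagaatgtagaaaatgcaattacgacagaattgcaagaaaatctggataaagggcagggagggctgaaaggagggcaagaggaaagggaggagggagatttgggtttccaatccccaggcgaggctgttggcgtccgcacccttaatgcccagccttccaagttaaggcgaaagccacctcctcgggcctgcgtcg
RefSeq gave promoters for 9 of the 10 genes, 15 in all. A CANNTG was in 9 of these 15 promoters, on 7 of the 9 genes, and in 66.2% of 32851 RefSeq promoters of the same length. CANNTG reads the same on both strands. Of the forms of it that were counted, CAGCTG was in 3 of the 15 promoters against 13% of all. CAGGTG was in 1 of the 15 against 17.2% of all. A match is a description of letters and not a binding site.

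In pre-cDC2, 0 of the 10 genes passed the limma test of KO against WT, as did 0.0676% of all tested genes, and 0 passed by voom on recovered reads. Of the 10, 1, Id3, had an unadjusted p below 0.05, against 6.67% of all tested genes. The KO values of 2 genes, Id3 and Tcf3, lay wholly below the WT values, as did those of 14.6% of all tested genes. Differences were -1.14 ± 0.50 for Id3 and -0.68 ± 0.35 for Tcf3, and 1.39 ± 0.80 for Id2, the only gene of the 10 with a positive difference. Id3 and Tcf3 kept their sign in 20 of 20 alternative settings, but their size moved with the WT library left out. Id3 differed by -0.75 without WT pre-cDC2 2 and by -1.53 without WT pre-cDC2 3, and Tcf3 by -1.18 and -0.17. For 7 other genes the sign rested on WT pre-cDC2 2. Without it, Id2 differed by -0.28, Zeb2 by 0.67, Bcl11a by 0.66, Cbfa2t3 by 0.61, Tcf4 by 0.49, Runx2 by 0.39 and Spib by 0.19, all with the sign turned. Without WT pre-cDC2 3 instead, Id2 was higher in KO by 3.06, while Cbfa2t3 differed by -1.07 and Tcf4 by -1.11. Each of these fits leaves 1 WT pre-cDC2 library, so only sizes are given. The direction of the genotype difference in pre-cDC2 was thus not settled for these 7 genes.

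The test of whether the genotype difference itself differed between the precursors passed for 0 of the 10 genes, as for 0.0203% of all tested genes, and for 0 by voom on recovered reads. Of the 10, 2 had an unadjusted p below 0.05, against 4.82%. They were Spib, with an interaction of 1.73 ± 0.49 (limma adjusted p = 0.823), and Zeb2, with 1.76 ± 0.76 (limma adjusted p = 0.987). Both moved with the WT pre-cDC2 library left out: Spib was 2.38 without WT pre-cDC2 2 and 1.08 without WT pre-cDC2 3, and Zeb2 was 2.55 and 0.98. With 1 RPKM added before the log2, the interaction of Zeb2 was 0.79. The comparisons share their libraries: the WT pre-cDC1 libraries serve in the genotype and the cell-type comparison, and so do the other groups.

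**Figure D4:**
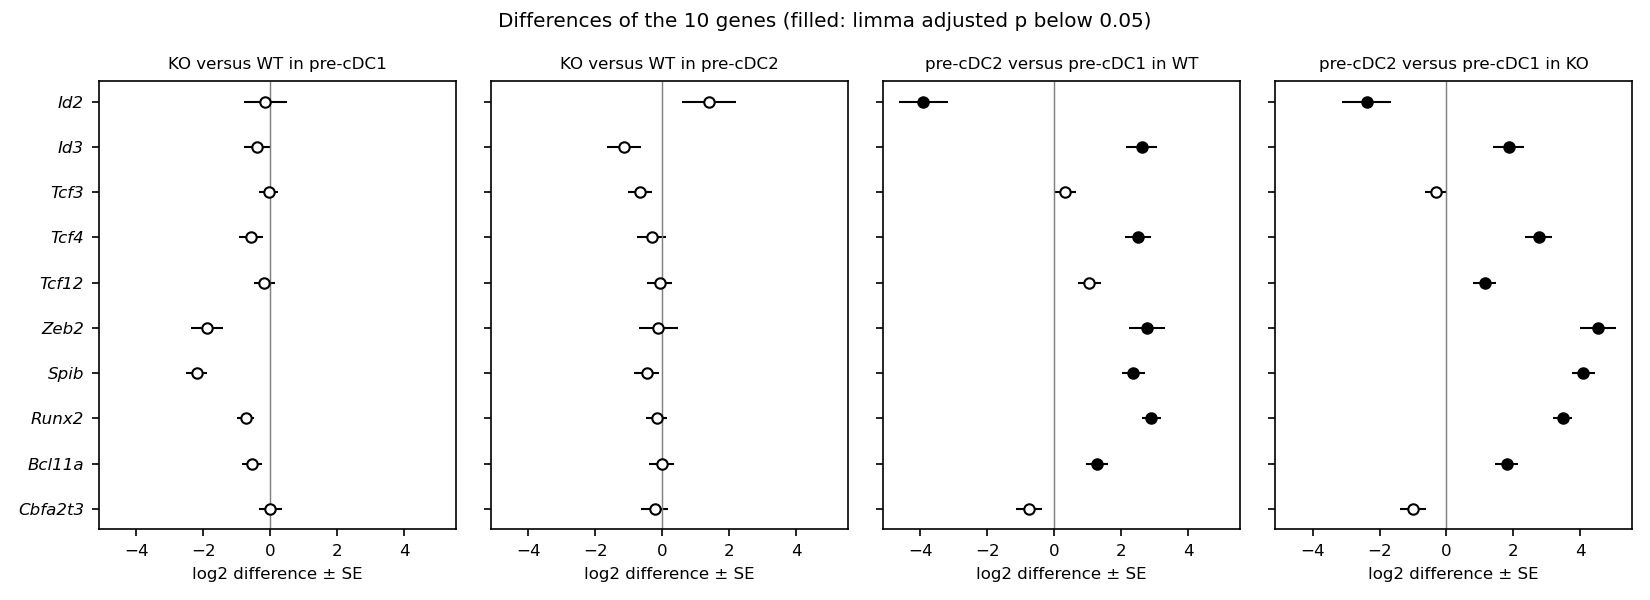
Log2 difference with its SE for each of the 10 genes in 4 comparisons, with filled points where the limma adjusted p is below 0.05. In the pre-cDC2 versus pre-cDC1 panels 7 genes in WT and 8 in KO are filled, and in the KO versus WT panels none is.

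Genes downstream of, or partnering with, these factors were read from fixed lists. Of 24 pDC genes known to depend on E2-2, 12 were higher and 3 lower in WT pre-cDC2 than in pre-cDC1, and 15 were higher and 6 lower in KO. Of all tested genes, 4.88% were higher and 6.59% lower in WT, and 10.7% and 10.1% in KO. The median difference of the 24 was 2.37 in WT and 2.83 in KO. Without WT pre-cDC2 2, the median difference of the 24 was 1.63 in WT. Siglech, the pDC lectin, was higher by 3.76 ± 0.42 in WT (limma adjusted p = 0.000629) and 4.48 ± 0.42 in KO, and Atp1b1, a sodium pump subunit, by 3.89 ± 0.52 and 5.42 ± 0.52. Bst2, the pDC antigen tetherin, was higher by 2.41 ± 0.37 in WT and Cybb, the phagocyte oxidase subunit, by 3.97 ± 0.37 in KO. In KO against WT pre-cDC1, 0 of the 24 passed the limma test and 9 had an unadjusted p below 0.05. Of all tested genes, 0.0271% passed and 9.03% had an unadjusted p below 0.05. The smallest p-values among the 24 were for Cybb, at -1.91 ± 0.33 (limma adjusted p = 0.0765), the RNA sensor Tlr7, at -2.94 ± 0.81, Smim5, at -1.17 ± 0.33, and Atp1b1, at -1.58 ± 0.46. In KO against WT pre-cDC2, 0 of the 24 passed and 0 had an unadjusted p below 0.05, against 0.0676% and 6.67% of all tested genes.

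Of 14 lymphoid genes known as E protein targets, 10 were tested. In pre-cDC2 against pre-cDC1, 2 were higher in WT, and 5 were higher and 1 lower in KO. The shares of all tested genes were 4.88% higher and 6.59% lower in WT, and 10.7% and 10.1% in KO. Il7r, the interleukin-7 receptor chain, was higher by 4.76 ± 1.10 in WT and 8.13 ± 1.10 in KO, and Blnk, an adaptor of B cell receptor signalling, by 3.81 ± 0.60 and 3.58 ± 0.60. Vpreb1, a surrogate light chain, was higher by 5.23 ± 1.44 in KO. The T cell and NK cell marker values of pre-cDC2 stand beside these, and their part was not tested.

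Of 12 other helix-loop-helix genes and E protein partners, 7 were tested. Lyl1, a helix-loop-helix factor that pairs with E proteins, was lower in pre-cDC2, with a difference of -1.95 ± 0.49 in WT (limma adjusted p = 0.0318) and -2.25 ± 0.49 in KO (limma adjusted p = 0.0108), and no other gene of the 7 passed. Of 9 paralogs, 7 were tested, and 0 passed between the WT precursors. In KO, Runx3 was higher in pre-cDC2 by 1.26 ± 0.28 (limma adjusted p = 0.0112) and Bcl11b, a T cell factor and itself a T cell marker here, by 6.50 ± 1.88 (limma adjusted p = 0.0369). Of 13 other cDC transcription factors, 12 were tested. In WT, 1 was higher and 4 lower in pre-cDC2, against 4.88% and 6.59% of all tested genes. In KO, 2 were higher and 5 lower, against 10.7% and 10.1%. Batf3, a factor that cDC1 need, had differences of -5.93 ± 0.59 in WT and -6.74 ± 0.59 in KO, and Irf8, another, of -1.86 ± 0.31 and -2.27 ± 0.31. In KO against WT, 0 genes of these 3 lists and of the lymphoid list passed the limma test in either precursor, and of their 36 tested genes 5 had an unadjusted p below 0.05 in pre-cDC1 and 1 in pre-cDC2, against 9.03% and 6.67% of all tested genes.

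As a description of likeness, the genes with the most similar profile were ranked over the 10 libraries among 9481 genes. The 10 points fall into the 2 cell types, so that any gene that separates them correlates highly. Nearest to Id2 were Ifngr1 (r = 0.993), a chain of the interferon-gamma receptor, and Clnk (r = 0.991). Nearest to Tcf4 were Bst2 (r = 0.993), Lifr (r = 0.992) and Siglech (r = 0.989), and nearest to Spib was Cybb (r = 0.996). Nearest to Bcl11a was Tcf4 (r = 0.986). Ddr1 (r = 0.992) was nearest to Zeb2 and Slc44a2 (r = 0.993) to Runx2. For Id3, Tcf12, Cbfa2t3 and Tcf3 the best matches were Ftx (r = 0.953), Mllt1 (r = 0.971), Fes (r = 0.983) and Nr4a3 (r = 0.896).

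On GRCm38, the genes lie on separate chromosomes: Id2 on chromosome 12 (25093799 to 25097140), Id3 on 4 (136143497 to 136145755), Tcf3 on 10 (80409514 to 80433647), Tcf12 on 9 (71842688 to 72111871) and Zeb2 on 2 (44983632 to 45117395). Spib lies on chromosome 7 (44525993 to 44532071), Runx2 on 17 (44495987 to 44814797), Bcl11a on 11 (24078056 to 24174123), Cbfa2t3 on 8 (122625141 to 122699109) and Tcf4 on 18 (69343429 to 69687967). Antisense genes share exon bases with 4 of them: Zeb2os covers 653 bases of Zeb2 exons (3.27%), Runx2os1 519 of Runx2 (5.87%), 4930538E20Rik 316 of Bcl11a (2.40%) and Gm10612 295 of Cbfa2t3 (3.52%). The strand setting of the counts is not given in the sources used here, so reads over those bases cannot be assigned to a strand.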

How the data were processed

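Libraries were made by SMARTSeq v2 from nanogram amounts of RNA and sequenced as paired ends, per the labels' protocols. Per the submitters' processing notes, the authors used STAR 2.3, featureCounts 1.5.0 and edgeR in R 3.3.3 on GRCm38 (mm10). Not given in the sources used here are the annotation release, the strand setting and the edgeR version. The deposited values are log2 RPKM for 52550 genes, which the authors had scaled to library size. A per-gene solution gave whole reads (within 0.01) for 52526 genes, used for read totals, read numbers and the voom alternatives. These reads come from PCR without molecular identifiers.

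The 10 libraries were grouped as the labels give them (3, 3, 2 and 2). A gene was tested if 2 or more libraries had it above 0 log2 RPKM, and no pseudocount was added to the deposited values. By the per-gene solution, those values already hold an added count of 0.187 to 0.339 reads, depending on the library. A gene with 0 reads therefore has a finite value set by its length, and list means take in such values. The model, in limma 3.58.1 (R 4.3.3), had a mean for each of the 4 groups and used eBayes with a trend, with 6 residual and 3.31 prior degrees of freedom, two-sided, threshold 0.05. Positive differences mean higher in KO or in pre-cDC2. The procedure was tested on simulated data. Python 3.11.15, NumPy 2.4.6 and pandas 2.3.3 made the other tables. Gene positions and lengths are from GENCODE release M21, but the position of Tcf4 is from RefSeq. The length of Tcf4 was inferred from the deposited values, as the length that gave whole reads.

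The members, lists and tests were chosen with earlier results of these data known. Named were the 10 genes, for each the genes of highest Pearson correlation (at most 3), and up to 4 genes of smallest unadjusted p per list and comparison. The alternatives were other filters, 1 RPKM added before the log2, quantile normalization, median centring, eBayes without trend, fits of only the compared groups, replicate blocks, leaving out each library, and voom on the recovered reads. Voom with total reads as library size was chosen after seeing the data.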

Additional observations from a re-analysis of the deposited data

How the results depend on the processing

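Of the genes called, the cell-type calls of Runx2 held in every setting tried, and those of Tcf4, Zeb2 and Spib in KO likewise. The number of the 10 genes called for KO against WT in pre-cDC1 was 0, and 1 under the stricter filter and 1 with only the groups compared, Spib each time; it ranged from 0 to 2 as single libraries were left out. The range was 0 to 3 for KO against WT in pre-cDC2, 0 to 2 for the interaction, 6 to 7 between the WT precursors and 5 to 9 between the KO precursors. Leaving out KO pre-cDC1 1, KO pre-cDC1 3, KO pre-cDC2 1 or KO pre-cDC2 2 gave 5 each time. Between the WT precursors, 7 fell to 1 with only the groups compared, where all genes called fell from 1697 to 460. The cause was not tested. The upper ends for both genotype comparisons, the interaction and the KO precursors were reached without WT pre-cDC2 3. That fit leaves 1 WT pre-cDC2 library, and calls among all tested genes rose there as well (counts below). In the fits that gave 5 between the KO precursors, calls among all tested genes fell. These ranges therefore moved with the calls of all tested genes and are not particular to the 10.

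With the replicate number as a block, 6 of the 10 genes were called between the precursors in WT and 6 in KO. Of all tested genes, 7.87% and 18% were called there. In the other comparisons, 0 of the 10 genes were called. With genotype and replicate number as a block, 2 were called in WT (all genes 217) and 5 in KO (all genes 1094 against 3074). The labels do not say what the numbers mark, and deviations of same-numbered libraries correlated by -0.030 to 0.032. In a group of 2 the deviations mirror each other, so these values cannot show whether the numbers pair the samples. The main fit treats the libraries as unpaired. Under the block the interaction of Tcf12 turned to -0.045, and with genotype and number to -0.33.

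Signs turned elsewhere only for values near 0 or by leaving out a library. Tcf3 in KO against WT pre-cDC1 was 0.0066 by voom on total reads, and Bcl11a in KO against WT pre-cDC2 was 0.0053 after quantile normalization and 0.040 by voom on total reads. Leave-one-out ranges that crossed 0 were, in pre-cDC1, -0.043 to 0.046 for Cbfa2t3, -0.35 to 0.042 for Tcf12 and -0.24 to 0.22 for Tcf3. In KO against WT pre-cDC2 they were -0.69 to 0.66 for Bcl11a, -1.07 to 0.61 for Cbfa2t3, -0.28 to 3.06 for Id2, -0.72 to 0.39 for Runx2, -1.12 to 0.19 for Spib, -0.38 to 0.21 for Tcf12, -1.11 to 0.49 for Tcf4 and -0.90 to 0.67 for Zeb2. For the interaction they were -0.15 to 1.21 for Bcl11a, -1.08 to 0.60 for Cbfa2t3, -0.14 to 3.21 for Id2, -0.20 to 0.39 for Tcf12 and -0.55 to 1.06 for Tcf4. Between the WT precursors they were -1.60 to 0.080 for Cbfa2t3 and -0.20 to 0.82 for Tcf3.

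Median centring shifted the median of all genes by -0.12 between the WT and -0.19 between the KO precursors, and total-read voom by 0.20 and 0.26. The share of called genes that were higher in pre-cDC2 was 42.5% in WT and 51.2% in KO, 35.3% and 40.6% after median centring, 38.6% and 42.7% after quantile normalization, and 62.9% and 71.1% by total-read voom. In KO against WT pre-cDC1, 4 genes of all tested were called, and 0 (voom) to 53 (only the groups compared) in settings other than leaving out a library. For pre-cDC2 the count was 10, and 0 (only the groups compared) to 42 (eBayes without trend), and for the interaction it was 3, and 0 (replicate blocks) to 36 (eBayes without trend). Leaving out WT pre-cDC2 2 gave 109, 48 and 32, and leaving out WT pre-cDC2 3 gave 114, 1048 and 495; the lowest counts on leaving out another library were 0, 5 and 0. Between the precursors the counts ranged from 999 (without WT pre-cDC1 1) to 2722 (without WT pre-cDC2 2) in WT, and from 1418 (without KO pre-cDC2 1) to 3887 (without WT pre-cDC2 3) in KO, with 1655 without KO pre-cDC2 2 and 1055 without WT pre-cDC1 2. Groups of 2 and 3 libraries limit all tests, and a group left with 1 library is assumed to vary like the others.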
